A study of Phaffia rhodozyma with 6 samples.

Results

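Catalase 1 and a pair of glutathione S-transferases are the genes described here, 3 of the 6363 genes measured by RNA sequencing in the carotenoid-producing yeast Phaffia rhodozyma. They were found by their identifiers, CED84930 and CDZ97957, each named Glutathione S-transferase, and CDZ96425, named catalase 1. They were selected on their FPKM values and Cuffdiff's test of the same contrast, so their own differences are given as a description and support nothing further. The study grew 3 fermenter cultures of BPAX-A1, a mutagenised strain with improved astaxanthin production, and 3 of the wild-type strain CBS6938. All cultures had sucrose as the carbon source in a defined medium at pH 5.5, 20 °C and 70% dissolved oxygen, and were harvested in late exponential growth. Which mutations BPAX-A1 carries is given by no source used here.

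For each gene the table holds 1 value in a condition called q1 and 1 in a condition called q2. They are FPKM, fragments scaled by transcript length and library size, a measure of transcript level per length. No source used here says which condition is the mutant, so every direction is that of q2 against q1. With 1 value per condition there is no spread between cultures, and the read depth behind a value is unknown. In such bulk cultures, more cells with a transcript and more of it per cell cannot be told apart. A gene is called when Cuffdiff's q-value, its p-value adjusted over all 6272 tested genes, is below 0.05. The standard error given beside a log2 ratio is the one that the p-value implies, and it restates that test. Added over all genes, FPKM came to 1030219 for q1 and 2161506 for q2, and the median log2 ratio of genes above 1 FPKM in both was 0.11. Rescaling the conditions to equal sums would subtract 1.07 from every log2 ratio and move the median over all tested genes from 0.12 to -0.95. Leaving 104 genes named as ribosomal proteins out of the sums, mitochondrial ones aside, would subtract 0.41 and give a median of -0.29. As deposited, 3607 of 6254 tested genes with a finite ratio were higher in q2. The count was 1048 after rescaling to equal sums and 2216 with ribosomal proteins left out.

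Glutathione S-transferases join the tripeptide glutathione to reactive electrophiles, such as epoxides and products of lipid oxidation, which makes them soluble and ready for export. Conjugates are carried out of the cytosol by ABC pumps of the multidrug resistance-associated group and are taken apart by gamma-glutamyl transpeptidase. Catalase splits hydrogen peroxide into water and oxygen and is found largely in peroxisomes in yeasts. Astaxanthin, the main carotenoid of this yeast, is itself known as an antioxidant.

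Both glutathione S-transferases were near the bottom of the range in q1 and at a moderate level in q2. CED84930 (scaffold 249, 6619 to 7695) had 0.440 FPKM in q1 and 39.7 FPKM in q2 per the authors' deposited table. That is a 90.3-fold difference, or a log2 ratio of 6.50 whose implied standard error is 1.71 (q 0.00570 per the authors' deposited table). Its level stood at percentile 2.67 of all genes in q1 and at percentile 45.4 in q2. CDZ97957 (scaffold 185, 366 to 1651) had 1.0 FPKM in q1 and 41.9 FPKM in q2 per the authors' deposited table, a 41.9-fold difference with a log2 ratio of 5.39. Its percentile went from 3.74 to 47.2. The p-value of CDZ97957 is 5e-05 per the authors' deposited table, the lowest that table gives, so no standard error can be taken from it. Dividing the log2 ratio by Cuffdiff's test statistic gives 1.03 for CDZ97957, 1.26 for CED84930 and 1.06 for catalase 1 as another measure of that error. Over the genes that allow each measure, its median was 0.81, against 0.51 for the implied standard error. Most intervals given here would therefore be wider with it. The pair lay within a few FPKM of each other in either condition, and the larger fold of CED84930 comes with the lower starting value.

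Catalase 1 was already at a middling level in q1 and among the more abundant transcripts in q2. CDZ96425 (scaffold 54, 135836 to 138404) had 31.4 FPKM in q1 and 272 FPKM in q2 per the authors' deposited table. The difference was 8.68-fold, with a log2 ratio of 3.12 and an implied standard error of 0.91 (q 0.0180 per the authors' deposited table). Its percentile among all genes was 43.1 in q1 and 90.2 in q2.

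The low starting values make the size of the glutathione S-transferase ratios depend on how low values are treated. With 1 FPKM added to both conditions, the log2 ratio was 4.82 for CED84930, 4.42 for CDZ97957 and 3.08 for catalase 1. On that scale they ranked 18, 23 and 87 among the 6363 genes. With 5 FPKM added, the log2 ratios were 3.04, 2.97 and 2.93 in the same order. All 3 are called by Cuffdiff, against 3.65% of all tested genes called higher in q2, and this was the basis of the choice. Of the 147 tested genes at or below the q1 level of CDZ97957, 24 were called higher in q2, or 16.3%, and 3 lower. The pair is itself among the 24, and genes this low in q1 have little room to be called lower. The direction of these counts therefore follows largely from how the set was formed. Within the glutathione S-transferase and catalase genes, the highest q-value inside the threshold was 0.0180, that of catalase 1, and the lowest outside it was 0.0939, that of a gene with a catalase-like domain, per the authors' deposited table.

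**Figure D1:**
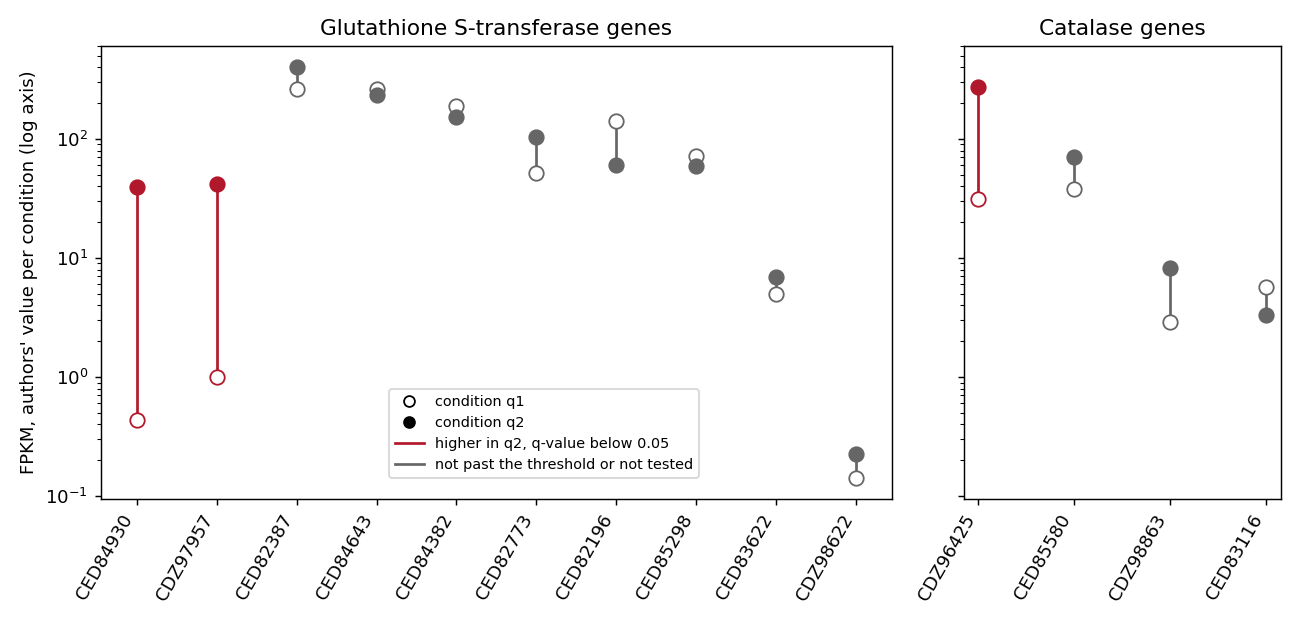
Level of each glutathione S-transferase gene (left) and catalase gene (right) in FPKM on a log axis, as 1 authors' value for q1 (open circle) and 1 for q2 (filled circle) joined by a line. The red genes went from 0.440 to 39.7, from 1.0 to 41.9 and from 31.4 to 272 FPKM, while the grey genes show shorter lines in both directions.

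None of the other glutathione S-transferases was called. Besides the pair, 8 genes carry the name, 6 of them spelled out and 2 as GST alone, and 7 of the 8 were tested. Cuffdiff called 0 of the 7, where 5.53% of all tested genes were called. An unadjusted p below 0.05 was found for 1 of the 7, beside 14.6% of all tested genes, 4.13% of them lower, which is near the background. That gene, CED82196, is annotated as a predicted glutathione S-transferase and was lower in q2, with 140 FPKM in q1 and 60.2 FPKM in q2 per the authors' deposited table. Its log2 ratio was -1.22 and the implied standard error 0.49 (q 0.141 per the authors' deposited table). CED82773 had the highest ratio of the uncalled glutathione S-transferases, with 51.9 FPKM in q1 and 103.8 FPKM in q2 per the authors' deposited table. The log2 ratio was 1.0, the implied standard error 0.60 and the 95% interval from -0.18 to 2.18. It would be slightly below 0 after rescaling to equal sums.

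Of the genes with the spelled-out name, CED84643 and CED84382, the most abundant in both conditions, had slightly lower values in q2, as did CED85298. CED84643 had 263 FPKM in q1 and 233 FPKM in q2 per the authors' deposited table, with an interval of the log2 ratio from -1.31 to 0.96. CED84382 had 188 FPKM in q1 and 152 FPKM in q2 per the authors' deposited table, and its log2 ratio of -0.30 had an interval from -1.37 to 0.77. For CED85298 the authors' deposited table gives 71.4 FPKM in q1 and 59.0 FPKM in q2, a log2 ratio of -0.27. These intervals all hold 0. The log2 ratio over Cuffdiff's test statistic gives larger errors, 0.94, 0.92 and 0.71, than the implied 0.58, 0.55 and 0.45. The intervals would be wider with it, so a 2-fold rise is not excluded. The low-level CED83622 had 5.02 FPKM in q1 and 6.93 FPKM in q2 per the authors' deposited table. Of the genes named only GST, which carry a membrane term in the annotation, CED82387 had 263 FPKM in q1 and 406 FPKM in q2 per the authors' deposited table (log2 ratio 0.62), and CDZ98622 had 0.141 and 0.224 FPKM there and was not tested.

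Per length, the order within the 8 genes with the spelled-out name changed at its lower end. In q1 the pair held the last places, 7 and 8, below CED83622. In q2 CDZ97957 was at place 6 and CED84930 at place 7, still below the 5 more abundant genes, and CED83622 was last. CED84643 was first and CED84382 second in both conditions. CED82773 stood at place 5 in q1 and at place 3 in q2, and CED82196 went from place 3 to place 4, with 60.2 FPKM against the 59.0 FPKM of CED85298 at place 5 per the authors' deposited table. Neighbours in the order could not be tested against each other.

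Summed over the family, the deposited values were close in both conditions. The 8 genes summed to 721 FPKM in q1 and 697 FPKM in q2, a ratio of 0.966, or 0.460 after rescaling to equal sums. The pair made up 0.200% of this sum in q1 and 11.7% in q2, and the other 6 genes went from 719.7 to 615 FPKM. With the 2 genes named GST included, the sums were 985 and 1103 FPKM and the pair held 0.146% and 7.40%. These are sums of authors' values without an error.

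Among the catalase genes, catalase 1 alone carried most of the sum in q2. The 4 genes named catalase summed to 78.0 FPKM in q1 and 354 FPKM in q2, a 4.55-fold ratio or 2.17-fold after rescaling to equal sums, and the share of catalase 1 was 40.3% in q1 and 76.9% in q2. In q1 the most abundant was CED85580, named catalase, with 37.9 FPKM against the 31.4 FPKM of catalase 1 per the authors' deposited table. In q2 CED85580 had 70.4 FPKM per the authors' deposited table, and catalase 1 was first. The log2 ratio of CED85580 was 0.89 with an implied standard error of 0.48 and an interval from -0.04 to 1.83.

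The remaining catalase genes were expressed at low levels. CDZ98863, described as a catalase-like domain, had 2.90 FPKM in q1 and 8.27 FPKM in q2 per the authors' deposited table. Its log2 ratio was 1.51 and the implied standard error 0.56 (p 0.00665, q 0.0939 per the authors' deposited table). CED83116 had 5.76 FPKM in q1 and 3.32 FPKM in q2 there, a log2 ratio of -0.79 with an interval from -1.78 to 0.20. Cuffdiff called 0 of the 3, beside 5.53% of all tested genes, and 1 had an unadjusted p below 0.05, higher in q2, beside 10.5% of all tested genes. With 3 genes, such counts are near the background. After rescaling to equal sums, 1 of the 3 would remain above 0, beside 1048 of 6254 over all tested genes. Whether a ratio of catalase 1 or of the pair differs from that of its relatives was not tested, since no values per culture are used here.

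**Figure D2:**
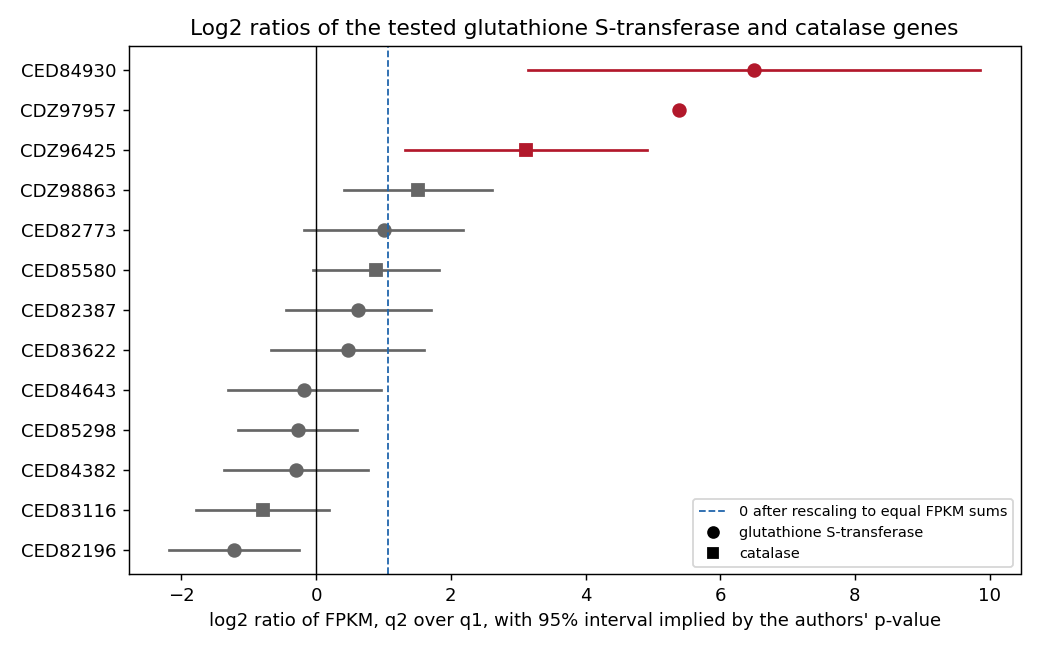
Log2 ratio of FPKM in q2 over q1 for the 13 tested glutathione S-transferase (circles) and catalase (squares) genes, with the 95% interval implied by the authors' p-value. The red genes lie at 6.50, 5.39 and 3.12, the grey genes between -1.22 and 1.51, CDZ97957 has no interval because its p-value is at the lowest value, and the dashed line marks the shift of 1.07 between the FPKM sums.

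Among genes that make, recycle or break down glutathione, a single gene of breakdown was called. Of 14 such genes found by name, Cuffdiff called 1 (7.14%) higher and 0 lower in q2, near the 3.65% and 1.88% of all tested genes for a list of this size. The called gene was a gamma-glutamyltranspeptidase (CED85566), the enzyme that removes the glutamyl group of glutathione and of its conjugates. It rose from 22.0 FPKM in q1 to 61.8 FPKM in q2 per the authors' deposited table, 2.81-fold, with a log2 ratio of 1.49 and an implied standard error of 0.49. Its q-value of 0.0475 per the authors' deposited table is just inside the threshold, and the call is lost when the adjustment is limited to genes with 1 FPKM or more in both conditions.

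The other genes of this list named here and in the next paragraph were chosen after their values were seen. A second gene of that enzyme, the gamma-glutamyltransferase CED82833, had 21.2 FPKM in q1 and 43.6 FPKM in q2 per the authors' deposited table (log2 ratio 1.04, q 0.257). Oxoprolinase (CED82660), which opens the ring formed from the released glutamyl group, had 13.7 FPKM in q1 and 27.7 FPKM in q2 per the authors' deposited table (log2 ratio 1.02, q 0.330). Both had an unadjusted p below 0.05 and neither was called, and both ratios fall slightly below 0 after rescaling to equal sums. A glutaredoxin (CDZ98218), a small thiol enzyme that uses glutathione as its reductant, had 374 FPKM in q1 and 125 FPKM in q2 per the authors' deposited table. Its log2 ratio was -1.58 and the implied standard error 0.56 (q 0.0762 per the authors' deposited table). It had the lowest ratio of 6 glutaredoxin genes, whose median log2 ratio was -0.31. Cuffdiff called 0 of the 6, beside 5.53% of all tested genes. Values were higher in q2 for 2 of them, beside 3607 of 6254 over all tested genes. The most abundant, CED82993, had 1471 FPKM in q1 and 1993 FPKM in q2 per the authors' deposited table.

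The enzymes of glutathione synthesis and reduction were not called. Gamma-glutamylcysteine synthetase (CED84078), which performs the first and limiting step, had 85.9 FPKM in q1 and 119 FPKM in q2 per the authors' deposited table, with an interval of the log2 ratio from -0.65 to 1.58. Glutathione synthetase (CDZ97440) had 71.5 FPKM in q1 and 73.0 FPKM in q2 per the authors' deposited table, with an interval from -0.96 to 1.02. The glutathione-disulfide reductase (CED84647), which returns oxidised glutathione to its reduced form, had 107 FPKM in q1 and 120 FPKM in q2 there, and the glutathione peroxidase (CDZ97070) had 190 FPKM in q1 and 162 FPKM in q2. The list as a whole had a median log2 ratio of 0.23, beside 0.12 over all tested genes. As deposited, 9 of the 14 values were higher in q2, beside 3607 of 6254 over all tested genes. After rescaling to equal sums 1 was higher, beside 1048 of 6254. With ribosomal proteins left out of the sums 6 were higher, beside 2216 of 6254.

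Cysteine is the amino acid whose supply limits glutathione, and none of its genes was called, which for so short a list is near the background. Of 11 genes for sulfate uptake, sulfate reduction and cysteine synthesis, Cuffdiff called 0, beside 5.53% of all tested genes, and 0 had an unadjusted p below 0.05, beside 14.6%. Their log2 ratios ran from -0.72 for sulfate adenylyltransferase (CED84508) to 1.0 for a cystathionine lyase or synthase (CED84208), genes named for these values after they were seen. The lowest p in the list was that of the sulfate exchanger CED83653, with 15.2 FPKM in q1 and 27.4 FPKM in q2 per the authors' deposited table (log2 ratio 0.85, q 0.377), and cystathionine beta-synthase (CED82420) followed with a log2 ratio of 0.53. The median of the list was 0.18, and 6 of the 11 values were higher in q2, beside 3607 of 6254 over all tested genes. After rescaling to equal sums 0 were higher, beside 1048 of 6254. With ribosomal proteins left out of the sums 3 were higher, beside 2216 of 6254.

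Among the ABC transporters, the family that includes the pumps for glutathione conjugates, 4 of 28 genes were called, all of them higher in q2. That is 14.3%, where 3.65% of all tested genes were called higher. The multidrug resistance-associated ABC transporter CED82131 rose from 12.5 FPKM in q1 to 126 FPKM in q2 per the authors' deposited table (log2 ratio 3.33, q 0.00226). A second gene with that name, CED85202, rose from 8.91 to 36.8 FPKM per the authors' deposited table (log2 ratio 2.05, standard error 0.61, q 0.0210). CED82294, of the same group, rose from 2.23 to 8.35 FPKM per the authors' deposited table (log2 ratio 1.91). The called gene outside the group was a pleiotropic drug resistance protein (CDZ97680), of a class of plasma membrane drug pumps in yeasts, with 7.24 FPKM in q1 and 25.7 FPKM in q2 per the authors' deposited table (log2 ratio 1.83, q 0.00705).

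Before adjustment, and counting the 4 called genes, 8 transporters had a p below 0.05 with a higher value in q2 and 1 with a lower value, that is 28.6% higher, against 10.5% higher and 4.13% lower over all tested genes. Of the 28 values, 22 were higher in q2, beside 3607 of 6254 over all tested genes, and the median log2 ratio was 0.69. After rescaling to equal sums, 8 of the 28 were above 0, beside 1048 of 6254, and the median was -0.38. With ribosomal proteins left out of the sums, 19 were above 0, beside 2216 of 6254, and the median was 0.28. The ratios of the 4 called genes, 1.83 to 3.33, stay above 0 under either rescaling. A split made after the values were seen put 3 of the calls among the 12 genes with multidrug resistance-associated in their name and 1 among the other 16. Which substrates these transporters carry in this yeast is not known from the files.

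The genes matched by words for peroxide and superoxide removal were called about as seldom as genes in general. The match took in every gene with thioredoxin in its name, including protein disulfide isomerases and bare thioredoxin-like folds. Whether those act on peroxide is not given, so the counts are those of a name match. Of the 39 genes, Cuffdiff called 0 higher and 1 lower in q2, or 2.56%, beside 3.65% higher and 1.88% lower over all tested genes. The called gene has a thioredoxin-like fold (CED85166) and fell from 120 FPKM in q1 to 22.7 FPKM in q2 per the authors' deposited table, 5.31-fold. Without adjustment, p was below 0.05 for 2 higher and 3 lower genes, beside 10.5% and 4.13% of all tested genes. The uncalled genes among them are named after their values were seen. Both genes with a higher value were described as thioredoxin-like. CDZ98006 had 30.4 FPKM in q1 and 83.4 FPKM in q2 per the authors' deposited table (log2 ratio 1.46, q 0.0828), and CED82807 had 27.0 and 67.5 FPKM there (log2 ratio 1.32, q 0.197). An alkyl hydroperoxide reductase or peroxiredoxin (CDZ97208), which also removes peroxide, had 427 FPKM in q1 and 141 FPKM in q2 per the authors' deposited table (log2 ratio -1.60, q 0.110). Sulfiredoxin (CDZ96727), the enzyme that repairs over-oxidised peroxiredoxin, had 15.6 FPKM in q1 and 4.97 FPKM in q2 there (log2 ratio -1.65, q 0.108). The 4 superoxide dismutase genes were grouped after their values were seen. Cuffdiff called 0 of the 4, beside 5.53% of all tested genes, which for so few genes is near the background. A higher value in q2 was found for 1 of the 4, beside 3607 of 6254 over all tested genes. Their log2 ratios ran from -0.75 to 0.53, with a lowest q-value of 0.566. The median log2 ratio of the 39 genes was -0.11, or -0.22 after centring on all genes. As deposited, 18 of the 39 values were higher in q2, beside 3607 of 6254 over all tested genes. After rescaling to equal sums 7 were higher, beside 1048 of 6254. With ribosomal proteins left out of the sums 11 were higher, beside 2216 of 6254.

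Counted over both directions, peroxisome genes and enzymes that form hydrogen peroxide were called at a share near the background. Of 31 genes found by name, Cuffdiff called 2, both lower in q2. That is 6.45%, beside 5.53% of all tested genes called in either direction and 1.88% called lower. A glucose oxidase (CED83784), which forms hydrogen peroxide from sugar and oxygen, fell from 101 FPKM in q1 to 25.1 FPKM in q2 per the authors' deposited table (log2 ratio -2.01, standard error 0.61, q 0.0251). A D-aspartate oxidase (CED84830), which also forms hydrogen peroxide, fell from 37.5 to 13.9 FPKM per the authors' deposited table (log2 ratio -1.43, standard error 0.46, q 0.0348). A further gmc oxidoreductase (CED85556), chosen after its values were seen, had 78.6 FPKM in q1 and 28.0 FPKM in q2 there (q 0.107). Other genes of these kinds, also named after their values were seen, were uncalled and slightly higher in q2 as deposited. The D-aspartate oxidases CED84920 and CED82248 had log2 ratios of 0.23 and 0.28. Those of the GMC family genes CED82443 and CDZ98695 were 0.39 and 0.29. A peroxisomal membrane protein of the MPV17 group (CDZ97346), also chosen after its values were seen, had a higher value in q2 (log2 ratio 1.39, q 0.0594 per the authors' deposited table). As deposited, values of the list were higher in q2 for 16 genes and lower for 15, with a median log2 ratio of 0.16. After rescaling to equal sums they were higher for 1 and lower for 30, with a median of -0.91. With ribosomal proteins left out of the sums they were higher for 8 and lower for 23, with a median of -0.25. Over all 6254 tested genes with a finite ratio, 3607 were higher as deposited, and 1048 and 2216 after these rescalings.

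**Figure D3:**
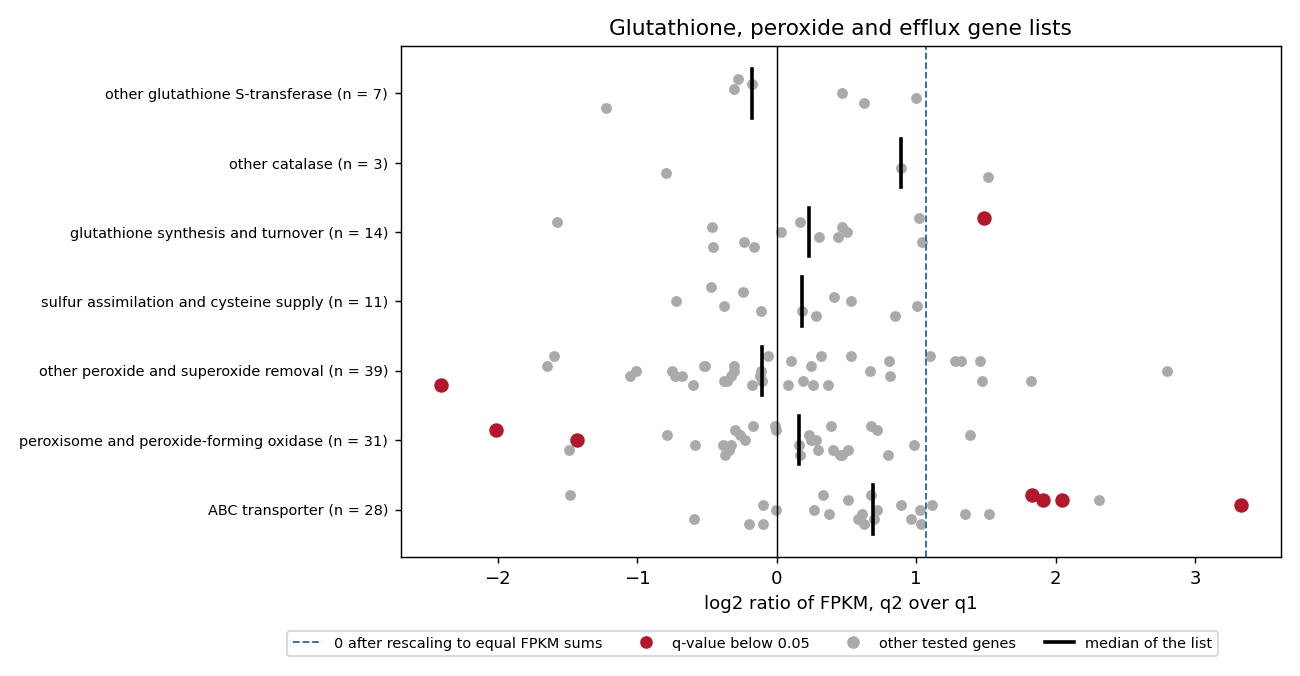
Log2 ratio of FPKM in q2 over q1 for every tested gene of 7 gene lists, with called genes in red and the list median as a bar. The called ABC transporters lie between 1.83 and 3.33, the called peroxide-forming oxidases at -2.01 and -1.43, and the dashed line marks the value that becomes 0 after rescaling to equal FPKM sums.

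The 3 genes lie on different scaffolds, and the pair of glutathione S-transferases sits at scaffold starts. CED84930 is gene 2 of the 709 genes of scaffold 249, with 1 gene before it. CDZ97957 is the first of only 2 genes of scaffold 185, whose last gene ends at position 3721, whereas catalase 1 has 42 genes before it among the 242 of scaffold 54. The strand of the genes is not in the table, and 0 of the neighbours overlap them.

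Several genes beside CED84930 also had higher values in q2, as did 3607 of 6254 tested genes with a finite ratio. A predicted flavoprotein (CED84932), which starts 5123 bases from it, rose from 12.1 FPKM in q1 to 53.2 FPKM in q2 per the authors' deposited table (log2 ratio 2.14, standard error 0.61, q 0.0145). Between them lies a soluble epoxide hydrolase (CED84931, scaffold 249, 9546 to 10343), an enzyme that opens epoxides with water. It had 51.7 FPKM in q1 and 135 FPKM in q2 per the authors' deposited table (log2 ratio 1.39, standard error 0.49, q 0.0734). The hypothetical protein on the other side (CED84929) had 78.0 FPKM in q1 and 526 FPKM in q2 there (log2 ratio 2.75, q 0.0669). Both had an unadjusted p below 0.05. The next genes were an amino acid transporter (CED84933, log2 -0.24), a WD40 repeat protein (CED84934, log2 0.09) and a NADH-cytochrome b-5 reductase (CED84935, log2 1.22, q 0.481).

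The only other gene of scaffold 185, a protein of unknown function (CDZ97958) that starts 1970 bases from CDZ97957, fell from 123 FPKM in q1 to 28.8 FPKM in q2 per the authors' deposited table (log2 ratio -2.10, q 0.00226). Of the 10 genes around catalase 1, Cuffdiff called 0 and 0 had an unadjusted p below 0.05, beside 5.53% and 14.6% of all tested genes. Their log2 ratios ran from -0.45 for the ribosome biogenesis gene CDZ96428 to 1.69 for an OB-fold gene (CDZ96426, q 0.389), and the gene directly before catalase 1, a stress responsive protein (CDZ96424), had 30.1 FPKM in q1 and 43.2 FPKM in q2 per the authors' deposited table. Over the 17 neighbours of all 3 genes, 1 was called higher and 1 lower, or 11.8%, against the background of 5.53%. For a list of this size that is near the background. An unadjusted p below 0.05 with a higher value in q2 was found for 3 of the 17, or 17.6%, beside 10.5% of all tested genes. As deposited, 12 of the 17 values were higher in q2, beside 3607 of 6254. After rescaling to equal sums 6 were higher, beside 1048 of 6254.

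**Figure D4:**
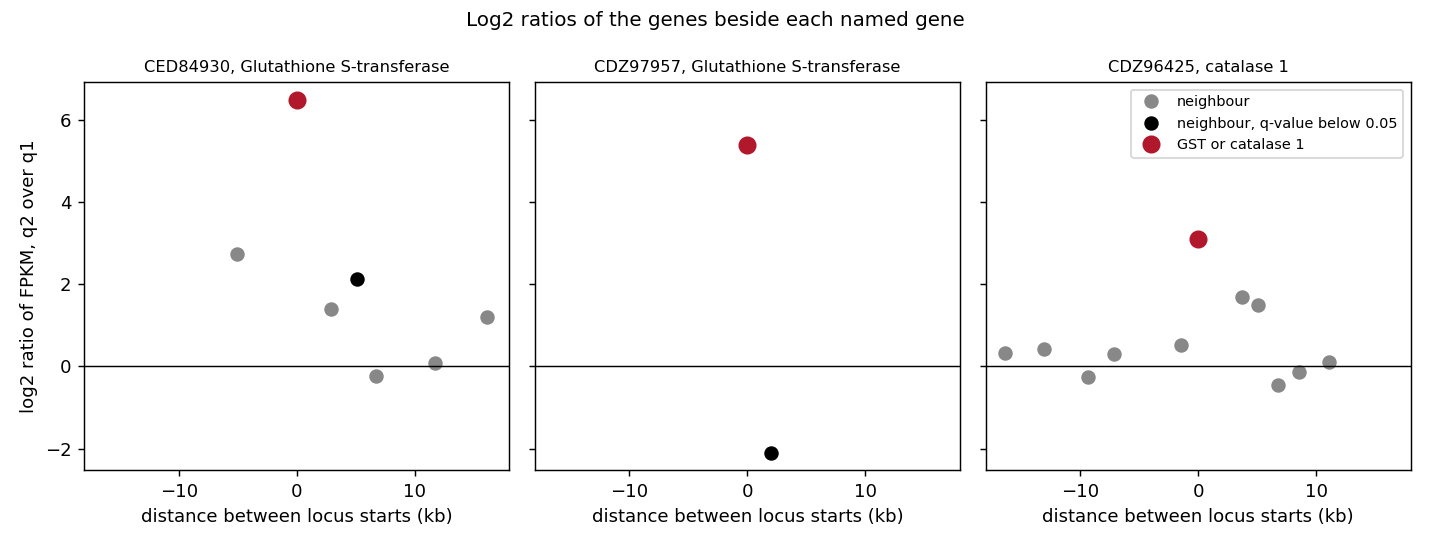
Log2 ratio of FPKM in q2 over q1 against the distance in kilobases between locus starts, for up to 5 genes on each side of CED84930, CDZ97957 and catalase 1 (red). The called neighbours (black) lie at 2.14 beside CED84930 and at -2.10 beside CDZ97957, and none lies beside catalase 1.

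The genes with the most similar values were found by their distance over log2(FPKM + 1) in the 2 conditions. The pair lay at a distance of 0.481 from each other. With the described genes left out of the search, the 3 nearest named genes were the same for both glutathione S-transferases. They were a short chain-type dehydrogenase (CDZ96865), with 1.30 FPKM in q1 and 39.4 FPKM in q2 per the authors' deposited table, ATP synthase subunit 6 (CDZ96150), with 1.26 and 45.5 FPKM, and cytochrome b (CED80058), with 1.30 and 45.6 FPKM. Their distances were 0.675 to 0.704 from CED84930 and 0.210 to 0.234 from CDZ97957. Subunit 6 and cytochrome b are encoded in the mitochondrial genome in yeasts. Nearest to catalase 1 were a SET domain gene (CED85266), with 36.0 FPKM in q1 and 252 FPKM in q2 per the authors' deposited table, a mitochondrial J-type chaperone (CED84654) and a nuclear localization sequence binding protein (CED83907), at distances of 0.222 to 0.305. Cuffdiff called none of these last 3, whose q-values per the authors' deposited table run from 0.0861 to 0.641. Likeness over 2 values says only that the levels are close.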

How the data were processed

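Illumina Stranded mRNA libraries were made from RNA isolated with a ZymoBiomics kit, per the labels' protocols. Reads went through FastQC, Trimmomatic, TopHat, Cufflinks and Cuffdiff, per the submitters' processing notes. No source used here gives their versions, the genome build, the annotation, the strand setting or the normalization between libraries. The authors deposited 1 FPKM value per gene and condition, and, per the file headers, the log2 ratio, Cuffdiff's test statistic (a score), p-value and q-value. There are 0 columns per culture, so no replicate error, no count model and no library depth could be had. FPKM values cannot be turned into reads here, since the table gives genomic spans and not transcript lengths.

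The log2 ratios recomputed from FPKM differed from the deposited ones by at most 1.38e-05, and Benjamini-Hochberg adjustment of the deposited p-values over 6272 genes differed from the q-values by at most 5.26e-07. Another 91 genes had no test. Starts are printed as the file's start plus 1. Gene lists were matched by words in names, with nothing removed. Members and lists were chosen with earlier results of these data known. The implied standard error is the absolute log2 ratio over the normal quantile of the two-sided p-value, and intervals are 95%. The adjustment was tested on simulated data. Named genes were the members, their relatives by name, 5 neighbours on each side, called genes or the 2 lowest p-values of each list, and the 3 nearest named genes by level other than the members; others are said to be chosen after their values were seen. Python 3.11.15, numpy 2.4.6, pandas 2.3.3 and scipy 1.17.1 were used.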

Additional observations from a re-analysis of the deposited data

How the results depend on the processing

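The settings tried could change the size of the 3 genes' log2 ratios but, given how the genes were selected, not their sign. With a pseudocount of 1 FPKM that of CED84930 was 4.82, and with 5 FPKM those of CED84930 and CDZ97957 were 3.04 and 2.97. Rescaling to equal FPKM sums gave 4.32 for CDZ97957 and 2.05 for catalase 1, beside 5.43 for CED84930. The other settings moved each by less than the ratio of the log2 value to the test statistic. At an unadjusted p below 0.05 the count went from 0 to 1 among the other glutathione S-transferases and among the other catalases, from 1 to 4 in glutathione synthesis and turnover, from 1 to 5 in peroxide and superoxide removal, from 2 to 4 among peroxisome and oxidase genes and among neighbours, and from 4 to 9 among ABC transporters, while it stayed at 0 in cysteine supply. At q below 0.01 it was 0 in glutathione turnover, 0 among peroxisome and oxidase genes and 1 among neighbours. Among ABC transporters it was 3, with CED85202 lost. The share of all tested genes at that threshold is not given here. Limiting the adjustment to the 6106 genes with 1 FPKM or more in both conditions left 0 in glutathione turnover. Alternatives chosen after seeing the data were name matches by GO term or by the spelled-out name, which left the counts at 0, and the Benjamini-Yekutieli adjustment, which gave 0 in glutathione turnover and 2 ABC transporters, both among the 4. No paired analysis was possible because the table holds no values per culture, and leaving out replicates was not run for the same reason. Depth limits are unknown, and values near 1 FPKM are the least certain.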

Other observations

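A gene named only multidrug resistance protein (CED83097), which the words for ABC transporters did not match and which was chosen after its values were seen, rose from 1.35 FPKM in q1 to 31.1 FPKM in q2 per the authors' deposited table (log2 ratio 4.53, q 0.00226). The MAPEG group, membrane proteins related in function to glutathione S-transferases, was also chosen after its values were seen. It had 4 genes, of which 2 were tested. Cuffdiff called 0 of the 2, with 0 below 0.05 before adjustment, beside 5.53% and 14.6% of all tested genes. The more abundant, CDZ97833, had 405 FPKM in q1 and 315 FPKM in q2 per the authors' deposited table (log2 ratio -0.36), and CDZ98143 had 46.9 and 30.0 FPKM there (log2 ratio -0.65).

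The position of the glutathione S-transferase pair led to a count, made after the data were seen, of genes that start within 10000 bases of a scaffold start. Of 101 such tested genes, 24 were called higher and 2 lower in q2, or 25.7%, against 5.53% of all tested genes. On the scaffolds with fewer than 20 genes in the table, 20 of 65 were called higher and 2 lower. These 65 genes lie on 55 scaffolds. On scaffold 185 the last gene ends at 3721, so the window there cannot separate genes near the start from others. The 20 include ATP synthase subunit 6 (CDZ96150) and cytochrome b (CED80058), which are encoded in the mitochondrial genome in yeasts. Whether position plays a part was not tested. On the scaffolds with 20 genes or more, 4 of 36 were called higher and 0 lower. Those 4 were CED84930, a hypothetical protein (CED82665), a beta-lactamase-like gene (CDZ96340) and an acid phosphatase (CED84360), which rose from 7.14 to 29.5 FPKM per the authors' deposited table. Within 10000 bases of the last gene end of these larger scaffolds, 4 of 56 were called higher and 1 lower, and away from both ends 3.30% of 6092 genes were called higher. The members of the pair are among the genes counted.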
